A study of Mus musculus with 9 samples.

Results

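The genes described here are the protein-coding genes of the count table whose symbol is Zbtb followed by a number, with or without a final letter. Their products are transcription factors with a BTB domain and C2H2 zinc fingers. The rule gave 40 genes of 55487 in the table. Of these, 38 had enough counts to be tested, and Zbtb9 and Zbtb16 did not. Poly-A RNA was sequenced from MCEC, a line of murine cardiac endothelial cells, in 9 libraries. There were 3 libraries each of WT cells, of cells labelled Zbtb46 knockdown (KD) and of cells labelled Zbtb46 overexpression (OE). The labels give no method for lowering or raising Zbtb46 and do not say whether either line is 1 clone or a pool, and no library from cells with a control vector was analysed here. They also do not say whether the 3 libraries of a group came from separate cultures, so p-values measure the spread between these libraries, which may be technical.

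In this family the BTB domain sits near the amino terminus and joins the protein to itself, to related proteins and to corepressor complexes such as those built on Ncor1. The zinc fingers at the other end read DNA, and most well-studied members act as repressors. Members are best known from blood cells: Zbtb46 marks classical dendritic cells, Zbtb7b directs helper T cells, and Zbtb16 is needed by innate-like lymphocytes. Zbtb46 is also expressed in endothelium.

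Total counts ran from 39491828 to 55745849 per library, and ribosomal RNA took 7.32% to 17.12% of them in the WT libraries, 9.44% to 11.84% in the KD libraries and 14.23% to 18.03% in the OE libraries. The 40 genes together took 0.0823% to 0.1057%. The WT libraries varied most: their median coefficient of variation over the tested members was 8.09%, against 4.92% among KD libraries and 4.55% among OE libraries. Defining endothelial markers were absent or near 0. Of 12 endothelial markers 6 were tested, Erg was at 0 in every library, and Cdh5 and Pecam1, which encode junction proteins of endothelium, had mean levels of 0.0325 ± 0.0284 and 0.0578 ± 0.0502 CPM (counts scaled to library size; SD, n = 3) in WT. Others were present, with Eng at 124.5 ± 6.78, Flt1 at 17.2 ± 0.196, Egfl7 at 5.18 ± 0.459, Kdr at 2.64 ± 0.252 and Tek at 1.84 ± 0.114 CPM. Fibroblast markers were also uneven: Col1a1 stood at 5259 ± 289.7, Dcn at 98.0 ± 6.37 and Pdgfra at 17.1 ± 1.56 CPM, but Col1a2 at 0.611 ± 0.0993 and Lum at 0.0232 ± 0.0269 CPM, and Tcf21 was at 0 in WT. Summed over the 12 endothelial markers, levels were 146.8 to 159.6 CPM in WT, 124.1 to 131 in KD and 107.2 to 117.5 in OE; over 6 fibroblast markers they were 5110 to 5676, 4847 to 4912 and 4039 to 4133 CPM. Most of the endothelial sum was Eng and most of the fibroblast sum Col1a1. Both sums were lower in KD and in OE than in WT, and their part in the results below was not tested. Of the 6 tested endothelial markers, 0 were higher and 4 lower in KD, where 21.3% of all genes tested passed. In OE 1 was higher and 4 lower, where 36.4% passed. The 4 lower in OE were Tek (log2 fold change -1.99), Egfl7 (-1.05), Kdr (-0.58) and Eng (-0.55). Flt1 was higher in OE (21.9 ± 1.58 CPM, log2 fold change 0.35, SE 0.062, edgeR adjusted p 0.00151) and lower in KD (-0.51). Of 7 leukocyte markers only Cd68 was tested, at 3.76 ± 0.176 CPM in WT, and Flt3 and Itgax, which dendritic cells express, were at 0.0618 ± 0.0393 and 0.0112 ± 0.0194 CPM.

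How strongly each member was expressed was compared per length, as RPKM (CPM divided by kilobases of annotated exon). Most of the family was expressed at low to moderate levels. The median over the 38 tested members in WT was 2.75 RPKM, beside 3.62 RPKM over all genes tested, and 28 of the 38 lay between 1 and 6 RPKM. The 6 leading members stood apart from the rest. They were Zbtb22 at 14.2 ± 1.03 RPKM (SD, n = 3), Zbtb7c at 13.6 ± 0.553, Zbtb7a at 12.9 ± 0.168, Zbtb7b at 10.9 ± 0.857, Zbtb17 at 10.5 ± 0.747 and Zbtb12 at 9.87 ± 0.527. Zbtb22 and Zbtb7c, Zbtb7b and Zbtb17, and Zbtb17 and Zbtb12 differed by less than the larger of their SDs, and the other neighbours in this order by more. The seventh, Zbtb4, reached 5.29 ± 0.239 RPKM. All 3 genes of the Zbtb7 branch were thus among the leading 4, including Zbtb7b, otherwise known as a T cell factor. Zbtb46 itself ranked 32 of 40 in WT, at 1.60 ± 0.0732 RPKM.

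**Figure D1:**
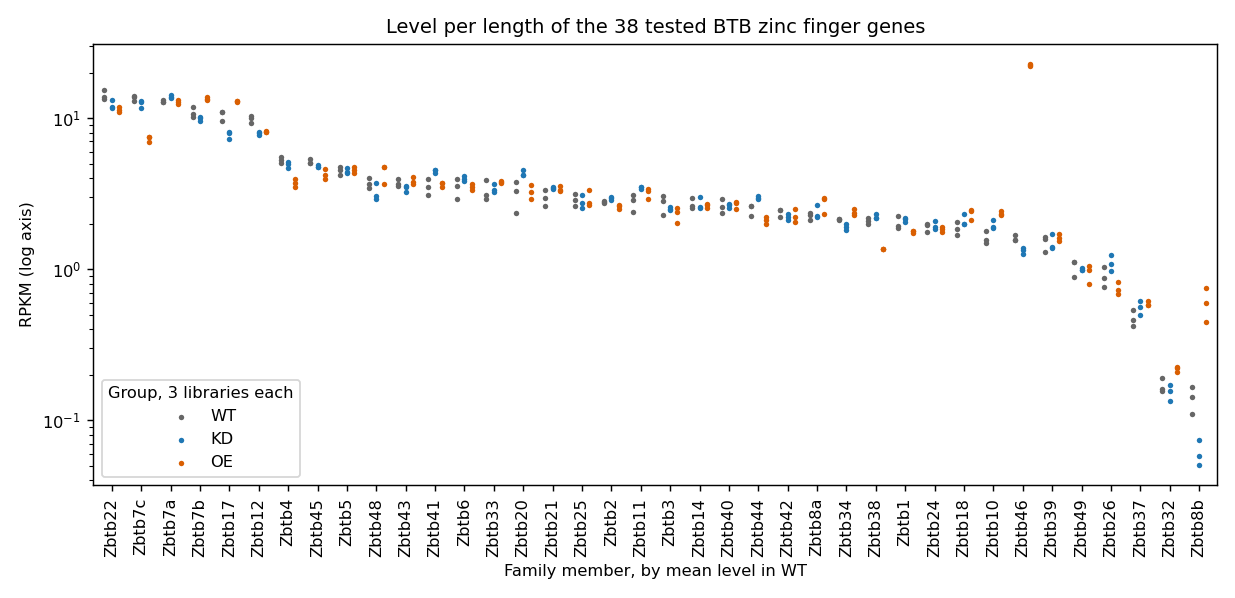
Level per length (RPKM, log axis) of the 38 tested family members in each library, ordered by mean level in WT; points are the 3 WT (grey), 3 KD (blue) and 3 OE (orange) libraries. The 6 leading members lie near or above 10 RPKM in WT, and Zbtb46 moves from 1.60 RPKM in WT to 22.5 RPKM in OE.

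At the low end, Zbtb32 and Zbtb8b were tested at 0.169 ± 0.0181 and 0.139 ± 0.0281 RPKM in WT. Zbtb16 had 0 counts in all 9 libraries. Zbtb9 had at most 9 counts in a library; the annotation places part of its exons inside Ggnbp1 on the same strand. In all, 17 of the 40 members share exon bases with another annotated gene, 7 of them with a gene on the same strand. Whether the counting used strand is not given in the sources used here, so reads of the 17 could be shared with the other gene or left out. For overlaps on the same strand this holds with either setting. Not every overlap is repeated below. Zbtb21 shares exon bases with C2cd2 on the same strand, and Zbtb37 with Serpinc1 on the opposite strand.

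The targeted gene checks the labels. Zbtb46 (ENSMUSG00000027583, chr2:181387762-181459426, minus strand, GRCm38) had 506, 855 and 592 counts in WT replicates 1 to 3, which is 13.3, 14.4 and 13.2 CPM. KD libraries had 11.7, 11.4 and 10.7 CPM, and OE libraries 192, 189 and 194 CPM. All KD values lay below all WT values, but by little. The knockdown difference was a log2 fold change of -0.28 (SE 0.055), 17.8% lower, and the Benjamini-Hochberg adjusted p from quasi-likelihood testing in edgeR was 0.00144. Because Zbtb46 still stood at 11.2 ± 0.537 CPM in the libraries labelled KD, directions in that comparison belong to a line with a small reduction of this mRNA. In OE the log2 fold change was 3.81 (SE 0.039; edgeR adjusted p 3.22e-21).

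The make-up of the family was different in the OE libraries. Of all counts of the family, Zbtb46 gave 1.48% to 1.56% in WT libraries, 1.15% to 1.25% in KD libraries and 17.99% to 18.52% in OE libraries. Per length it became the leading member in OE, at 22.5 ± 0.313 RPKM, above Zbtb7b at 13.4 ± 0.322. The counts cannot separate transcripts of the native gene from those of an introduced copy. The other 39 members summed to 843.2, 909.8 and 879.6 CPM in WT, 931.1, 901.5 and 912.6 in KD, and 856.7, 859.7 and 853.1 in OE. The OE sums fell inside the WT range, and the KD sums overlapped it at the top.

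Across the family, 9 of the 38 tested members (23.7%) passed an adjusted p of 0.05 in KD against WT, where 21.3% of the 16955 genes tested passed. Of these members 4 were higher (11.0% of all genes) and 5 lower (10.4%). In OE against WT 15 members (39.5%) passed, beside 36.4% of all genes. There 7 were higher (17.0% of all genes) and 8 lower (19.5%). In OE against KD 16 members (42.1%) passed, beside 41.5%, with 7 higher (19.4% of all genes) and 9 lower (22.1%). With all 9 libraries these shares are close to those of all genes, and the numbers include Zbtb46. Without WT replicate 2 the KD count was 16 (42.1%), and the share of all genes 27.1%. Scaled by library totals alone, the KD split was 1 higher and 5 lower (15.8% of members), where 14.6% of all genes passed. At an unadjusted p under 0.05 the counts were 16, 20 and 18. The share of all genes was not computed at that threshold, so these counts have no background to be read against. The comparisons share libraries, so their calls are not independent of each other.

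Changes within the family were mostly small. The median size of the log2 fold change over the 38 members was 0.125 for KD against WT, 0.215 for OE against WT and 0.17 for OE against KD, where all genes tested had 0.162, 0.22 and 0.252. Signed medians were 0.005, 0.023 and -0.006, beside -0.002, 0.002 and 0.011 over all genes. Zbtb8b passed the test with at least a 2-fold change in all 3 comparisons and Zbtb46 in both that involve OE, and no other member did. Of all genes 2.64%, 5.34% and 7.49% did so. The 3 libraries of each group did not overlap for 16 members (42.1%) between KD and WT, beside 34.7% of all genes. Between OE and WT it was 18 members (47.4%), beside 45.1%, and between OE and KD 21 members (55.3%), beside 55.4%.

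**Figure D2:**
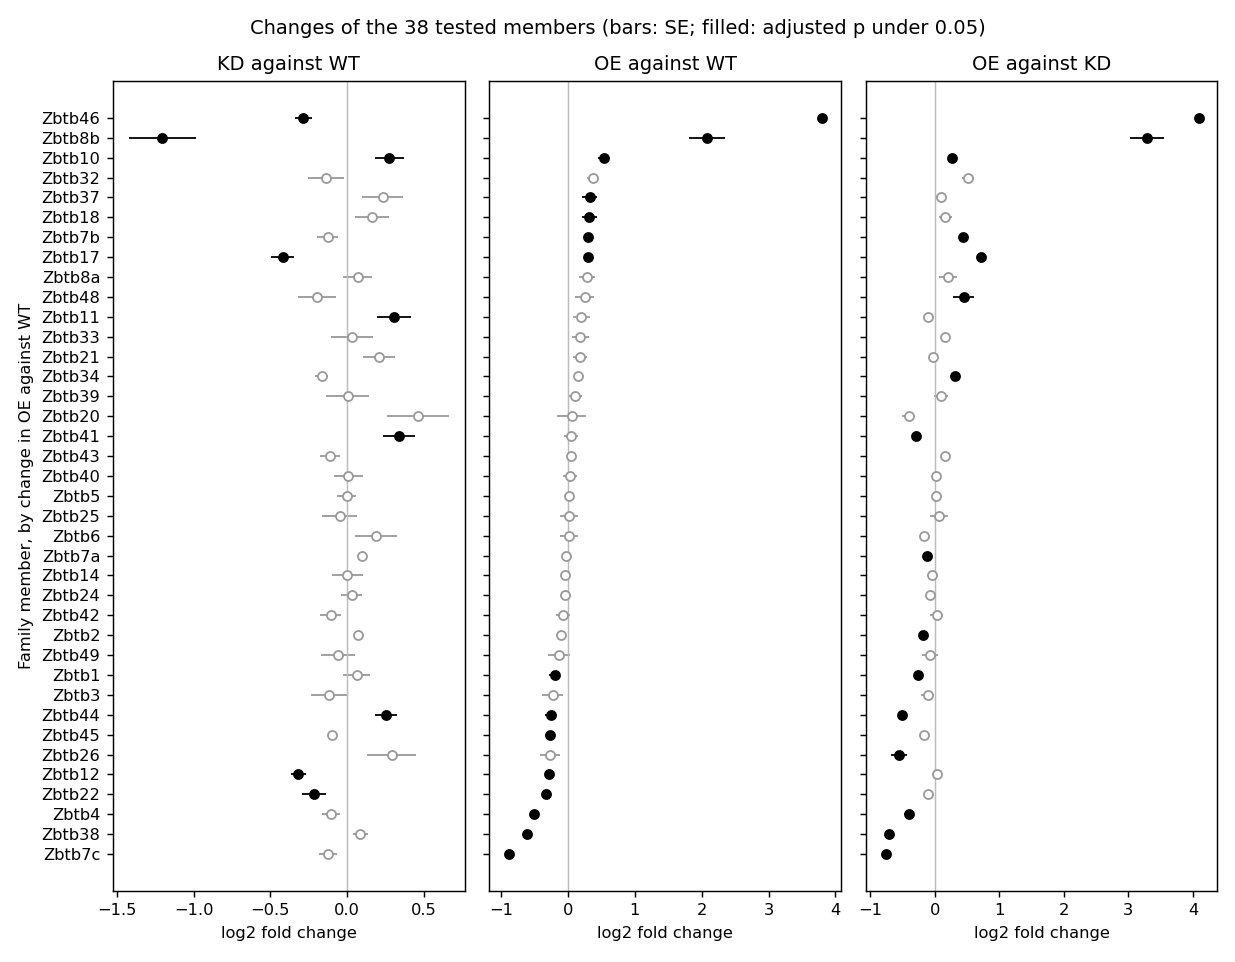
Log2 fold change of each tested member in the 3 comparisons, ordered by the change in OE against WT; bars are standard errors from 3 libraries a group and filled points passed an adjusted p of 0.05. The horizontal axes differ between panels. The panels hold 9, 15 and 16 filled points, and apart from Zbtb46 and Zbtb8b all values lie between -0.888 and 0.722.

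Both comparisons with WT called 7 members (18.4%), beside 13.0% of all genes tested; these comparisons share the WT libraries. Signs were opposite for 4 members (10.5%, beside 7.06% of all genes), a count that includes the targeted gene Zbtb46. Signs were the same for 3 (7.89%, beside 5.96%). Those lower in KD and higher in OE were Zbtb46, Zbtb8b and Zbtb17, and Zbtb44 was higher in KD and lower in OE. Zbtb10 was higher in both lines, and Zbtb12 and Zbtb22 were lower in both. To show what the starts of the members with opposite signs look like, their promoters from RefSeq (GRCm38.p6, 250 bases before to 50 after a transcript start) are given 5′ to 3′ on the strand of the gene, with every CpG in capitals. They are chr2:181424339-181424638 (minus strand) for Zbtb46, chr4:129440769-129441068 (minus) for Zbtb8b, chr4:141444423-141444722 (plus) for Zbtb17 and chr9:31030394-31030693 (plus) for Zbtb44.
Zbtb46: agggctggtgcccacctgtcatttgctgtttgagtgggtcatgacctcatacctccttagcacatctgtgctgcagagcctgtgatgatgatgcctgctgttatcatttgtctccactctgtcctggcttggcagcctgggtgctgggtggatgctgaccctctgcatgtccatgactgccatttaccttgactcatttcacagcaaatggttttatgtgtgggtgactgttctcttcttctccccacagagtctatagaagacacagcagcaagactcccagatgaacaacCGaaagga
Zbtb8b: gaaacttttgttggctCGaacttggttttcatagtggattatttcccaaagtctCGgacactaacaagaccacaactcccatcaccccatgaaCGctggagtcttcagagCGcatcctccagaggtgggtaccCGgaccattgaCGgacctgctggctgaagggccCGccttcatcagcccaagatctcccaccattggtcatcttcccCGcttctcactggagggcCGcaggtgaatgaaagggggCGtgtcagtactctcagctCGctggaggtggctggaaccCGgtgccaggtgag
Zbtb17: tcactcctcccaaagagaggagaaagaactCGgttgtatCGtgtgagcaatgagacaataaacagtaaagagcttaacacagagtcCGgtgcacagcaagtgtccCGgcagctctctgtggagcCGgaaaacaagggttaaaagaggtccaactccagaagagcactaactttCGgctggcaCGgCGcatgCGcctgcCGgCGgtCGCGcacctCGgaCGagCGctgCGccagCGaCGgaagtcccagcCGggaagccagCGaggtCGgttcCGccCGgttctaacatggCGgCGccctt
Zbtb44: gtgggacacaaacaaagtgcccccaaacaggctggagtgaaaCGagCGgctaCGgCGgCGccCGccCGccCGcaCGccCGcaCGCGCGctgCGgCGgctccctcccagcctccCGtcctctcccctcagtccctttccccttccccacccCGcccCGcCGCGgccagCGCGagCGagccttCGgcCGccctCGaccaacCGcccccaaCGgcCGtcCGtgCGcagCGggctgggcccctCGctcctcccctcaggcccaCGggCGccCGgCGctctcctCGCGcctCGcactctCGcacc
They hold 1, 12, 26 and 41 CpG respectively. The start listed for Zbtb46 lies 35.0 kb inside the annotated gene, so this window is not at the annotated 5′ end of the gene. The other windows lie at the 5′ end of their genes.

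The windows differed in base composition: that of Zbtb44 is 76.3% G and C and that of Zbtb46 50.7%. The table held 48 promoters for 35 of the 40 members. Their median was 25 CpG, where the median over all 32851 promoters of the table was 7. The GC box GGGCGG, searched on both strands, was present in 66.7% of the members' promoters and 35.7% of all promoters. It was present for Zbtb17 and Zbtb44, and these letters were not in the windows of Zbtb46 and Zbtb8b. TGACGT, the core of the cyclic AMP response element, was in 10.4% of the members' promoters and 7.5% of all, and TATAAA in 10.4% and 13.6%. Some members have several promoters, so these shares do not count members. The shares of all promoters were not limited to genes tested here. Other windows besides that of Zbtb46 also lie far inside the annotated gene, such as those of Zbtb20 (371.4 kb) and Zbtb12 (15.1 kb). By member, GGGCGG was present for 26 of the 35, TGACGT for 5 and TATAAA for 2.

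Zbtb8b had the largest change of the family in KD, and only Zbtb46 changed more in OE. Zbtb8b had 0.712, 1.08 and 0.917 CPM in WT, 0.477, 0.377 and 0.328 in KD and 3.88, 2.89 and 4.87 in OE. The 3 groups did not overlap, but KD rested on 15 to 24 counts per library. The log2 fold change was -1.20 in KD (SE 0.22; edgeR adjusted p 0.00549) and 2.08 in OE (SE 0.27; edgeR adjusted p 6.16e-07). Zbtb8a, its paralogue 47.6 kb away on the same strand, had 5.22 ± 0.306, 5.49 ± 0.554 and 6.34 ± 0.808 CPM in WT, KD and OE and passed in no comparison.

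Zbtb17 encodes Miz1, the partner through which Myc represses cell cycle inhibitor genes. Its levels were 42.3, 37.3 and 42.3 CPM in WT, 31.5, 28.4 and 31.1 in KD and 50.4, 50.2 and 49.5 in OE. No library of one group reached those of another. It was 25.3% lower in KD (log2 fold change -0.42, SE 0.077; edgeR adjusted p 4.43e-05) and 23.2% higher in OE (0.30, SE 0.061; edgeR adjusted p 0.000479). It shares exon bases with Spen on the opposite strand.

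Zbtb44 had 24.6, 24.3 and 21.1 CPM in WT, 27.4, 27.7 and 28.6 in KD and 18.5, 20.7 and 19.7 in OE. The order was thus the reverse of that of Zbtb17, again with no overlap of groups. The log2 fold changes were 0.26 in KD (SE 0.073; edgeR adjusted p 0.0130) and -0.25 in OE (SE 0.084; edgeR adjusted p 0.00887). The KD call was lost without WT replicate 3, without KD replicate 3 or with library totals alone, and the OE call without OE replicate 1.

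**Figure D3:**
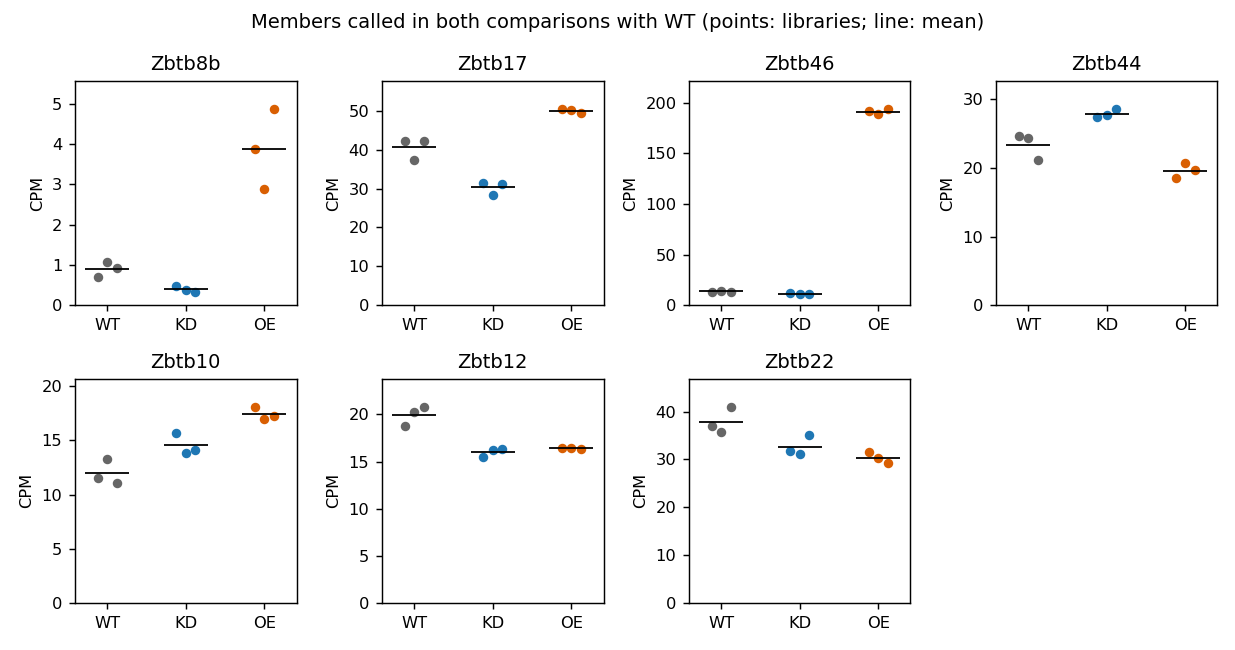
CPM in each library of the 7 members that passed in both comparisons with WT; each panel has its own axis from 0, points are libraries and lines are group means. Zbtb8b, Zbtb17 and Zbtb46 are lowest in KD and highest in OE, Zbtb44 is the reverse, Zbtb10 is lowest in WT, and Zbtb12 and Zbtb22 are highest in WT.

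Among members lower in both lines, Zbtb12 had 18.7, 20.2 and 20.8 CPM in WT, 15.5, 16.2 and 16.3 in KD and 16.5, 16.4 and 16.3 in OE. Zbtb22 had 37.0, 35.7 and 41.0 CPM in WT, 31.8, 31.1 and 35.0 in KD and 31.5, 30.2 and 29.2 in OE. In both genes every WT library lay above every other library. Both genes lie 960.2 kb apart in the major histocompatibility region of chromosome 17, and both were among the 6 leading members per length. The log2 fold changes of Zbtb12 were -0.32 in KD (SE 0.050; edgeR adjusted p 0.00282) and -0.28 in OE (SE 0.045; edgeR adjusted p 0.00355). Those of Zbtb22 were -0.21 in KD (SE 0.079; edgeR adjusted p 0.0239) and -0.32 in OE (SE 0.068; edgeR adjusted p 0.000597). Leaving out WT replicate 3 or either of KD replicates 1 and 2 ended the KD call of Zbtb22. Between OE and KD neither gene passed. Zbtb12 shares exon bases with C2 on the opposite strand, and Zbtb22 with Tapbp on the same strand.

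Of the telomere-binding members, Zbtb10 was higher in both lines. Its levels were 11.5, 13.3 and 11.1 CPM in WT, 15.7, 13.9 and 14.1 in KD and 18.1, 17.0 and 17.2 in OE. The OE libraries lay above all others. The log2 fold change was 0.28 in KD (SE 0.096; edgeR adjusted p 0.0269) and 0.54 in OE (SE 0.083; edgeR adjusted p 4.26e-05), and 0.26 between OE and KD (SE 0.062; edgeR adjusted p 0.0182). The last call was lost without KD replicate 2, KD replicate 3 or OE replicate 1 and with library totals alone. The KD call was lost without WT replicate 1, WT replicate 3, KD replicate 1 or KD replicate 3, in a fit of those 2 groups alone, and with library totals alone. Zbtb48, which binds telomere repeats and limits their length, had 12.9, 11.1 and 11.7 CPM in WT, 11.9, 9.82 and 9.30 in KD and 15.3, 15.3 and 11.7 in OE. All 3 groups overlapped, and only OE against KD passed (log2 fold change 0.44, SE 0.17; edgeR adjusted p 0.00351). Over the 20 Mb of chromosome 4 around Zbtb48 the median log2 fold change in OE against KD was 0.48.

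Of the 3 readers of methylated DNA, 2 were called lower in OE than in WT, as were 19.5% of all genes tested. Zbtb38 had 23.4, 24.4 and 25.6 CPM in WT, 25.6, 27.0 and 25.5 in KD and 16.0, 16.1 and 15.9 in OE. Zbtb4 had 43.0, 41.0 and 44.9 CPM in WT, 41.8, 37.7 and 40.1 in KD and 28.2, 32.1 and 30.2 in OE. For both genes WT and KD overlapped and OE lay below them. Zbtb38 was 34.8% lower in OE than in WT (log2 fold change -0.62, SE 0.039; edgeR adjusted p 2.36e-07), and Zbtb4 29.7% lower (-0.51, SE 0.065; edgeR adjusted p 1.53e-06). Both also fell in OE against KD, by 0.70 and 0.40 on the log2 scale. Zbtb33, which encodes Kaiso, had 16.9 ± 2.68 CPM in WT, 17.4 ± 1.09 in KD and 19.3 ± 0.316 in OE and did not pass (OE against WT 0.18, SE 0.13; edgeR adjusted p 0.132).

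The 3 Zbtb7 genes had unlike values in OE against WT, although they were not tested against each other. Zbtb7c had the largest fall of the family, from 65.3, 61.1 and 66.0 CPM in WT to 35.5, 35.4 and 33.0 in OE, with 60.9, 54.9 and 60.7 in KD. That was 46.0% lower than WT (log2 fold change -0.89, SE 0.048; edgeR adjusted p 1.01e-10) and took Zbtb7c from rank 2 to rank 7 of the family per length. Zbtb7b, by contrast, was higher in OE, at 73.2, 76.7 and 75.3 CPM beside 59.1, 56.9 and 66.1 in WT and 57.3, 53.7 and 55.7 in KD. Its log2 fold change was 0.31 against WT (SE 0.068; edgeR adjusted p 0.000146) and 0.43 against KD (SE 0.033; edgeR adjusted p 1.57e-06). Zbtb7a, a repressor of fetal globin genes, had 87.9 ± 1.14 CPM in WT, 94.1 ± 2.05 in KD and 86.6 ± 2.38 in OE. It did not pass against WT, and OE was lower than KD by 0.12 on the log2 scale (SE 0.029; edgeR adjusted p 0.0317), a call lost under 6 of the 16 alternatives with a test.

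The 9 tested members known from blood cells include Zbtb46, Zbtb7a and Zbtb7b. Of the 9, 1 was higher and 1 lower in KD, where 21.3% of all genes tested passed. In OE 2 were higher and 1 lower, where 36.4% passed. Zbtb1, needed for lymphocyte development, had 22.9, 27.5 and 23.7 CPM in WT, 26.2, 24.8 and 26.6 in KD and 21.7, 21.9 and 21.2 in OE. OE lay below both other groups, by 0.20 against WT (SE 0.083; edgeR adjusted p 0.0396) and by 0.26 against KD (SE 0.033; edgeR adjusted p 0.00621) on the log2 scale. The call against WT was lost under 7 of the 16 alternatives, among them the fits without WT replicate 2, KD replicate 3 or any single OE library. Zbtb11 was higher in KD, at 25.2, 25.9 and 26.2 CPM beside 17.8, 23.0 and 21.4 in WT and 21.8, 24.5 and 25.3 in OE (KD against WT 0.31, SE 0.11; edgeR adjusted p 0.0107, lost without WT replicate 1 or with library totals alone). It shares exon bases with Pcnp on the opposite strand and with Gm28037 on the same strand.

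Zbtb20, which represses the alpha-fetoprotein gene in liver, varied most within WT. Its WT levels were 72.7, 116 and 101 CPM, beside 140, 130 and 130 in KD and 99.9, 90.1 and 112 in OE. The KD libraries lay above all others, yet the log2 fold change of 0.46 against WT (SE 0.20) did not pass (edgeR adjusted p 0.114). WT replicate 1, the lowest, also had the highest share of ribosomal RNA among WT libraries, and the part of that share was not tested. Without WT replicate 1, without WT replicate 2 or with DESeq2, Zbtb20 passed. Zbtb24, Zbtb25 and Zbtb32 passed in no comparison; Zbtb24, mutated in a human immunodeficiency, had 9.72 ± 0.577, 9.95 ± 0.584 and 9.42 ± 0.350 CPM in WT, KD and OE.

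Of the members tied to the cell cycle and p53 targets, Zbtb17 is given above. Zbtb2 and Zbtb5, repressors of the inhibitor gene Cdkn1a, did not pass against WT. Zbtb2 had 20.6 ± 0.369, 21.7 ± 0.435 and 19.1 ± 0.562 CPM in WT, KD and OE, and OE was lower than KD (log2 fold change -0.18, SE 0.030; edgeR adjusted p 0.0288, lost under 6 of the 16 alternatives). Zbtb5 had nearly equal means of 25.1 ± 1.53, 25.1 ± 1.10 and 25.5 ± 1.10 CPM. Zbtb49 had 8.65 ± 1.07, 8.27 ± 0.171 and 7.82 ± 1.12 CPM and did not pass.

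Of the members tied to nerve and muscle, Zbtb18, a repressor needed in the developing cortex, was higher in OE. It had 10.3, 12.7 and 11.4 CPM in WT, 12.2, 14.1 and 12.2 in KD and 15.0, 15.1 and 13.0 in OE (OE against WT 0.32, SE 0.11; edgeR adjusted p 0.0127, lost without WT replicate 1, OE replicate 1 or OE replicate 2 and with library totals alone). Zbtb45 was lower in OE, at 17.8, 19.5 and 16.7 CPM beside 22.5, 21.2 and 21.2 in WT and 20.1, 20.5 and 20.1 in KD (OE against WT -0.26, SE 0.072; edgeR adjusted p 0.00637). Zbtb42 had 8.31 ± 0.528, 7.73 ± 0.396 and 7.89 ± 0.841 CPM and did not pass.

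Among the less studied members, 4 more passed. Zbtb41 was higher in KD than in both other groups, at 37.8, 37.9 and 36.6 CPM beside 29.2, 33.2 and 26.0 in WT and 29.5, 31.2 and 31.1 in OE. The log2 fold change was 0.34 against WT (SE 0.10; edgeR adjusted p 0.00164), and OE was 0.29 below KD (SE 0.031; edgeR adjusted p 0.00259). Zbtb37 had 8.62, 10.1 and 7.88 CPM in WT, 10.6, 11.5 and 9.34 in KD and 10.8, 11.0 and 11.6 in OE. Only OE was separate from WT, narrowly (0.32, SE 0.11; edgeR adjusted p 0.0209), and the call was lost without WT replicate 1, WT replicate 3 or OE replicate 3 and with library totals alone. Zbtb26 and Zbtb34 passed in OE against KD, in opposite directions. Zbtb26 had 7.76, 6.89 and 6.47 CPM in OE and 10.3, 11.7 and 9.18 in KD (-0.56, SE 0.13; edgeR adjusted p 0.000896), with WT at 8.43 ± 1.26 between them. Zbtb34 had 15.5, 15.0 and 16.6 CPM in OE and 13.2, 12.0 and 12.6 in KD (0.32, SE 0.059; edgeR adjusted p 0.00265), with WT at 14.1 ± 0.154.

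In all, 22 of the 38 tested members (57.9%) passed in at least 1 comparison, beside 52.1% of all genes tested, and 16 in none. Those not yet given that passed in none were Zbtb3, Zbtb6, Zbtb14, Zbtb21, Zbtb39, Zbtb40 and Zbtb43. Zbtb14, Zbtb39 and Zbtb40 had log2 fold changes between -0.04 and 0.11 in every comparison. Zbtb21 had 18.9 ± 2.32, 21.8 ± 0.382 and 21.5 ± 0.824 CPM in WT, KD and OE, with an edgeR adjusted p of 0.0721 in KD and 0.0845 in OE, and passed in both without WT replicate 2. A miss of the threshold does not show that these genes were equal between groups.

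Where members lie close together, their values were set side by side. Zbtb1 and Zbtb25 start 663 bases apart on opposite strands, and Zbtb1 fell in OE while Zbtb25 had a log2 fold change of 0.02 (SE 0.13) that did not pass. Zbtb6 and Zbtb26 overlap on the same strand, so reads of the shared exon cannot be assigned with certainty; in OE against KD, Zbtb26 passed and Zbtb6, at -0.17 (SE 0.047), did not. Zbtb34 and Zbtb43 lie 19.0 kb apart on the same strand, with OE against KD at 0.32 for Zbtb34 and 0.16 (SE 0.057; edgeR adjusted p 0.0899) for Zbtb43.

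Fold changes were uneven along the chromosomes, so each member was also read beside its 20 Mb window, by the median log2 fold change of the tested genes there. In OE against WT, 6 tested members lay in windows with a median beyond 0.2, 5 of them on chromosome 4 and Zbtb44 on chromosome 9. All 6 had the sign of their window, and 3 of them passed. For Zbtb40 (0.02, SE 0.11) the sign was not stable and turned in some alternative fits. The window of Zbtb8a, Zbtb8b and Zbtb40 on chromosome 4 (120 to 140 Mb) had medians of -0.18 in KD and 0.35 in OE over 282 genes. The next (140 to 160 Mb), with Zbtb17 and Zbtb48, had -0.16 and 0.30 over 215 genes. The change of Zbtb17 in OE was itself the median of its window, and with the window median removed its KD change was -0.26. Zbtb44 lay in a window at -0.35 in OE and 0.11 in KD, and with the medians removed its changes were 0.096 and 0.15. Zbtb8b stood well beyond its window, at 1.73 in OE and -1.02 in KD with the medians removed. Zbtb40, at 0.02 in OE, was 0.32 below its window. The other 12 members called in OE lay in windows within 0.2 of 0, Zbtb7c, Zbtb38, Zbtb4 and Zbtb10 among them. What sets the window medians was not tested.

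**Figure D4:**
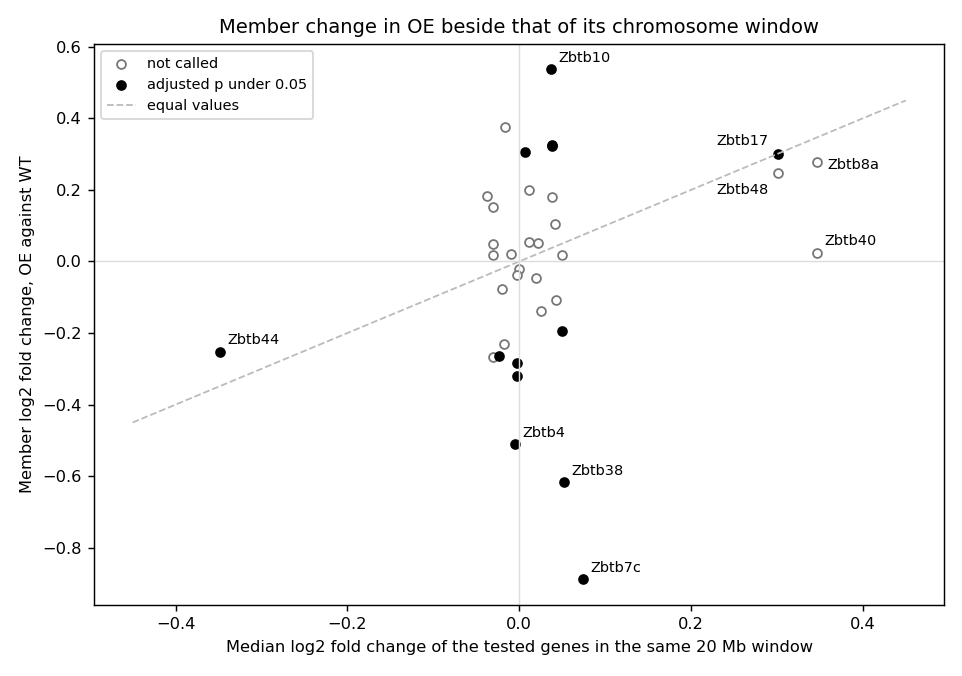
Log2 fold change of each tested member in OE against WT (vertical) beside the median log2 fold change of the tested genes in its 20 Mb window (horizontal); Zbtb46 and Zbtb8b are off the scale and left out, filled points passed an adjusted p of 0.05, and the dashed line marks equal values. Zbtb17 lies on the line, Zbtb44 lies near it, and Zbtb7c, Zbtb38, Zbtb4 and Zbtb10 lie far from 0 in windows near 0.

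BTB zinc finger genes that carry other symbols were read as a list of 8, all tested. In KD 1 was higher and 1 lower (median log2 fold change -0.05), where 21.3% of all genes tested passed. In OE 3 were higher and 1 lower (median 0.055), where 36.4% passed. Patz1 had the smallest p in both: it stood at 32.9 ± 1.49 CPM in WT, 25.6 ± 1.12 in KD (-0.36, SE 0.053; edgeR adjusted p 0.000298) and 18.8 ± 0.767 in OE (-0.81, SE 0.051; edgeR adjusted p 3.51e-09). Its window on chromosome 11 had a median of -0.52 in OE. In OE, Bcl6b, an endothelial relative of the germinal centre repressor Bcl6, was higher (4.24 ± 0.484 to 6.45 ± 0.559 CPM), as were Bcl6 itself (8.89 ± 0.345 to 11.0 ± 0.499 CPM) and Hic1 (25.0 ± 2.20 to 29.3 ± 0.813 CPM). Zfp131 was higher in KD, at 72.2 ± 2.14 CPM beside 60.2 ± 5.09 in WT (log2 fold change 0.26, SE 0.075). The window of Zfp131 on chromosome 13 had a median of 0.16 in KD.

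Corepressors and other partners of BTB proteins were read as a list of 22, all tested. In KD 1 of these was higher and 3 lower (median 0.001), where 21.3% of all genes tested passed. In OE 7 were higher and 5 lower (median 0.06), where 36.4% passed. Hdac1, a histone deacetylase, had the smallest p in both: 109 ± 3.21 CPM in WT, 79.1 ± 2.68 in KD (-0.46, SE 0.037; edgeR adjusted p 2.19e-07) and 144 ± 3.26 in OE (0.41, SE 0.031; edgeR adjusted p 2.29e-07). It lies in the same chromosome 4 window as Zbtb8b, whose medians were -0.18 and 0.35. The corepressor gene Ncor1 did not pass against WT (OE -0.12, SE 0.073). Bcor was among the 5 lower in OE, from 42.9 ± 1.29 to 36.7 ± 0.533 CPM. Bcorl1 was among the 7 higher, from 31.4 ± 2.89 to 39.6 ± 2.91 CPM.

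Among 8 genes with a BTB domain and no C2H2 fingers, 0 were higher and 3 lower in KD, beside 21.3% of all genes called. In OE 3 were higher and 3 lower, beside 36.4% of all genes. Nacc2 had the smallest p in KD (34.4 ± 1.05 CPM in WT, 27.2 ± 2.15 in KD; edgeR adjusted p 0.000631) and Keap1, the sensor that holds NRF2 in check, in OE (77.5 ± 7.02 to 52.2 ± 1.17 CPM; edgeR adjusted p 1.06e-07), in a window at -0.35.

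Of 6 genes listed as targets of members, 5 were tested. Whether members act on these genes in MCEC was not tested. In KD 1 was lower, beside 10.4% of all genes tested, and in OE 2 were lower, beside 19.5%. Cdkn1a, which Zbtb2, Zbtb5 and Miz1 with Myc can repress, fell in KD from 12.7 ± 0.688 to 8.42 ± 0.782 CPM (-0.59, SE 0.091; edgeR adjusted p 9.97e-05) and had 11.9 ± 0.470 CPM in OE. Lifr, known from dendritic cell studies of Zbtb46, fell in OE from 38.8 ± 3.97 to 29.6 ± 0.581 CPM (-0.39, SE 0.086; edgeR adjusted p 8.84e-05), while Csf3r was low, at 0.303 ± 0.0882 CPM in WT. Bcl2l1, entered in the list for Zbtb7a, fell in OE from 65.6 ± 1.07 to 51.4 ± 1.53 CPM (-0.35, SE 0.028, edgeR adjusted p 4.16e-06). Cdkn2b had 37.8 ± 1.79, 35.1 ± 0.338 and 34.9 ± 1.41 CPM in WT, KD and OE and did not pass.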

How the data were processed

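The authors deposited raw counts: whole numbers for each Ensembl gene, whose totals differ between libraries. The aligner, counting program, strand setting and annotation are not given in the sources used here; the submitters' processing notes name GRCm38 and mm10. Of 55774 rows, those of 168 genes listed more than once, with identical counts, were kept once, which left 55487 genes. Each of the 9 columns matched 1 sample. Genes kept by filterByExpr (16955) were scaled with TMM and fitted in 1 edgeR 4.0.16 quasi-likelihood model (R 4.3.3, robust, group as the only term), with Benjamini-Hochberg adjustment over all genes and a threshold of 0.05. CPM use TMM-scaled totals of the tested genes; RPKM divide by the union of GENCODE M21 exons. In 1 simulated data set with 200 changed genes, 10.6% of the 151 calls of this fit were unchanged genes, above the threshold of 0.05. That threshold concerns the expected share over many data sets, which a single data set cannot measure. Calls with an adjusted p near 0.05 are still to be read as less certain. Many more genes were called in the real comparisons (36.4% in OE against WT), so the rate of false calls there was not measured. SEs come from log2 CPM with a prior count of 2. DESeq2 1.42.0 served as an alternative. Members, lists and named genes were chosen with earlier results of these data known. A rule named the members called in any comparison (up to 6 rises and 6 falls each, and those called in both). It also named the 6 leading levels and the smallest p of each list. The other members, and further genes of the lists, were named outside this rule, whether called or not. The chromosome window holds the member itself. Protein sequences were not used here.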

Additional observations from a re-analysis of the deposited data

How the results depend on the processing

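Without single replicates the number of members called ran from 6 to 16 in KD against WT, from 13 to 17 in OE against WT and from 13 to 18 in OE against KD. The 16 in KD came without WT replicate 2, when 27.1% of all genes were called and Zbtb6, Zbtb7b, Zbtb7c, Zbtb20, Zbtb21, Zbtb26 and Zbtb37 also passed. Over the other settings the counts were 6 to 10, 13 to 15 and 13 to 19. Of the called members, 5 of 9, 11 of 15 and 13 of 16 passed under all 16 alternatives with a test, and in those fits none changed sign. Leaving out single replicates, the Zbtb46 log2 fold change ran from -0.314 to -0.241 in KD and from 3.776 to 3.84 in OE. With window medians removed it was 3.855 in OE, Zbtb44 turned to 0.096 in OE against WT and Zbtb48 to -0.039 in OE against KD. With a replicate block, 9, 15 and 16 members were called; same-numbered libraries shared only a number (correlations of deviations from -0.042 to 0.049, and 1 of 9 libraries correlating best with its own number in both other groups). Low counts limit what can be said of Zbtb8b, Zbtb32 and Zbtb9.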
